A study of Mus musculus with 16 samples.

Results

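Endurance training was compared with no training in the gastrocnemius, a mixed and mainly fast-fibred calf muscle, of wild-type (WT) mice. The comparison holds 8 of the 16 libraries of the series, 4 from WT trained and 4 from WT untrained mice, chosen by their sample titles and by the mouse identifiers that name the columns of the deposited table. All mice were C57Bl6/J males, 20 weeks old; the trained ones ran daily on a treadmill for 5 weeks and the others did not train. The other 8 libraries came from Il13-/- mice (KO), knockouts of the type 2 cytokine interleukin-13, 4 trained and 4 untrained by the same protocol. They entered the same model so that the spread between mice could be estimated, and the test of the difference between the responses of both genotypes uses them. Each library came from a separate mouse with an identifier of its own, and the numbers 1 to 4 within a group come from the sample titles. The whole muscle was extracted, so a library can hold tendon, vessels, nerve, fat and leukocytes beside muscle fibres.

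Skeletal muscle fibres differ in the myosin they use and in the fuel they burn. Type 1 fibres carry slow myosin and many mitochondria, type 2A fibres carry a faster myosin and are also oxidative, and types 2X and 2B are progressively faster and rely more on glycolysis. Repeated endurance exercise is known to raise the oxidative capacity of muscle, its use of fatty acids and its capillary supply, and to move fibres from type 2B and 2X towards 2A.

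The unit is RPKM, which divides the reads of a gene by its length and by the library total, so levels can be set side by side between genes. A total of 10171 genes reached 1 RPKM in at least 4 of the 16 libraries and were tested with limma on log2(RPKM + 0.1). A gene is said to have changed where the Benjamini-Hochberg adjusted p over all 10171 genes was under 0.05. A log2 difference is the trained mean minus the untrained mean on this scale, given with its standard error (SE). For genes at low levels this scale shrinks the change, and a fold is the ratio of the mean RPKM of both groups. The size of each library, worked out from the spacing of its low RPKM values, ran from 16748752 to 17627954 reads in untrained and from 16307025 to 20074677 reads in trained WT libraries.

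The library labelled WT trained 1 stood apart from the other 3 trained ones. Genes of the table held 83.5% of its reads against 76.0% to 78.8% in the other trained and 79.9% to 83.3% in the untrained WT libraries. The median gene lay 0.13 above the mean library on the log2 scale in WT trained 1, against -0.04 to 0.07 in the other WT libraries. Its median absolute deviation from its own group was 0.20 on the log2 scale, against 0.10 to 0.12 in the other WT libraries, and limma's library weight for it was 0.309, the lowest of all 16. Some of the results that it touches are also given without it, or under median-ratio scaling, which sets the median shift of each library to 0. A value printed without either can still depend on WT trained 1. All 12 fibre markers, among them the skeletal actin, fast troponin and titin genes, were expressed in every library, with summed levels of 96089 to 105547 RPKM in untrained and 81234 to 94034 RPKM in trained mice. Il13 was at 0 in each of the 8 WT libraries and at 0.0443 to 0.0921 RPKM, at most 2 reads, in 4 of the 8 libraries labelled KO. These few reads run against the labels, which do not say what part of the gene the allele lacks, so Il13 did not check the genotype, and WT and KO below are the labels' names.

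**Figure D1:**
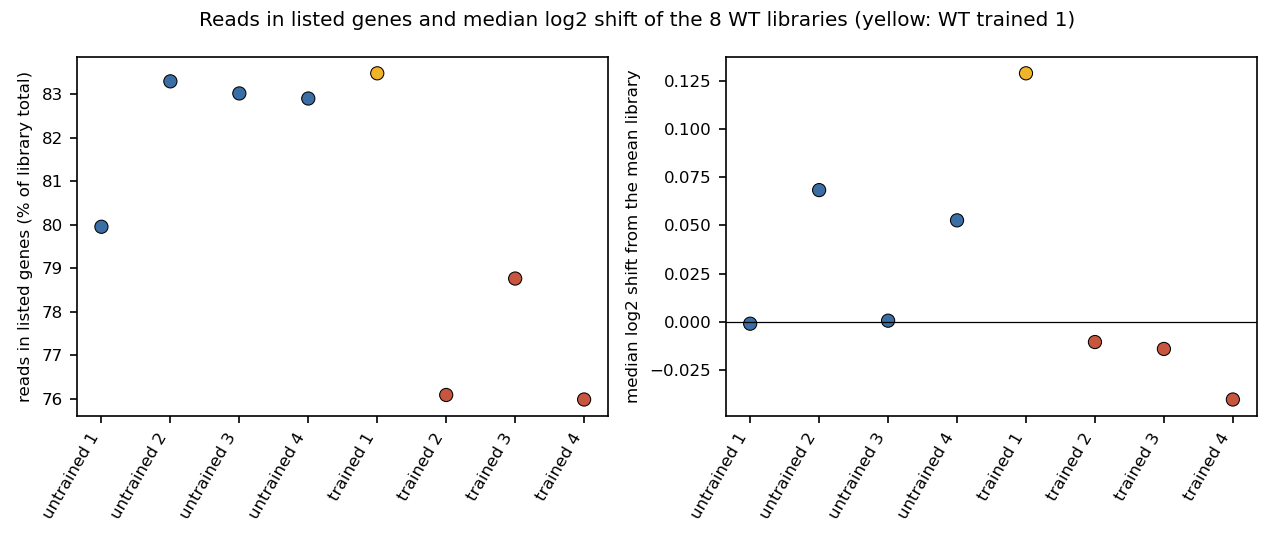
The left panel plots the reads in genes of the table as a percentage of each solved library total, and the right panel the median log2 shift of each library from the mean library, for the 8 WT libraries (blue untrained, red trained, yellow WT trained 1). WT trained 1 lies at 83.5%, above the other 3 trained libraries at 76.0% to 78.8%, and at a shift of 0.13.

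In WT muscle, training was accompanied by higher transcript levels of type 2A myosin, of enzymes that bring fatty acids and ketone bodies into oxidation, and of the aspartate shuttle enzyme Got1. The transcripts of the fast-muscle tropomyosin Tpm1, of Slc37a4 and Pfkfb4, which handle sugar phosphates, and of the T-box factor Tbx1 were lower. Altogether 19 genes changed (0.187% of those tested), 13 higher (0.128%) and 6 lower (0.059%) in trained mice, and 1202 genes were under 0.05 before adjustment. For each of the 19, the values of both groups were fully separate. Across all tested genes, the 4 trained values were all above the 4 untrained ones in 382 (3.76%) and all below in 266 (2.62%), and the median log2 difference of all genes was 0.01. Shares over all tested genes are printed below as the background of counts in gene lists. The lists were chosen with earlier results of these data known, and members of a list can move together. Such counts therefore describe the lists and test nothing.

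The number of calls depended on how the libraries were put on one scale and on WT trained 1. Under median-ratio scaling 177 genes were called, 110 higher (1.08%) and 67 lower (0.659%). With 1 weight per library 329 were called, 109 higher (1.07%) and 220 lower (2.16%), and without WT trained 1 there were 272, 67 higher and 205 lower. All 19 genes were still called in each of these 3 fits, and 134 genes were called both with weights and under median-ratio scaling. With untrained mouse 3, trained mouse 3 or trained mouse 4 left out, by contrast, no gene passed in limma, with 910, 925 and 862 genes under 0.05 before adjustment. Where a gene is described below as passing under median-ratio scaling, its main adjusted p is given with it.

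**Figure D2:**
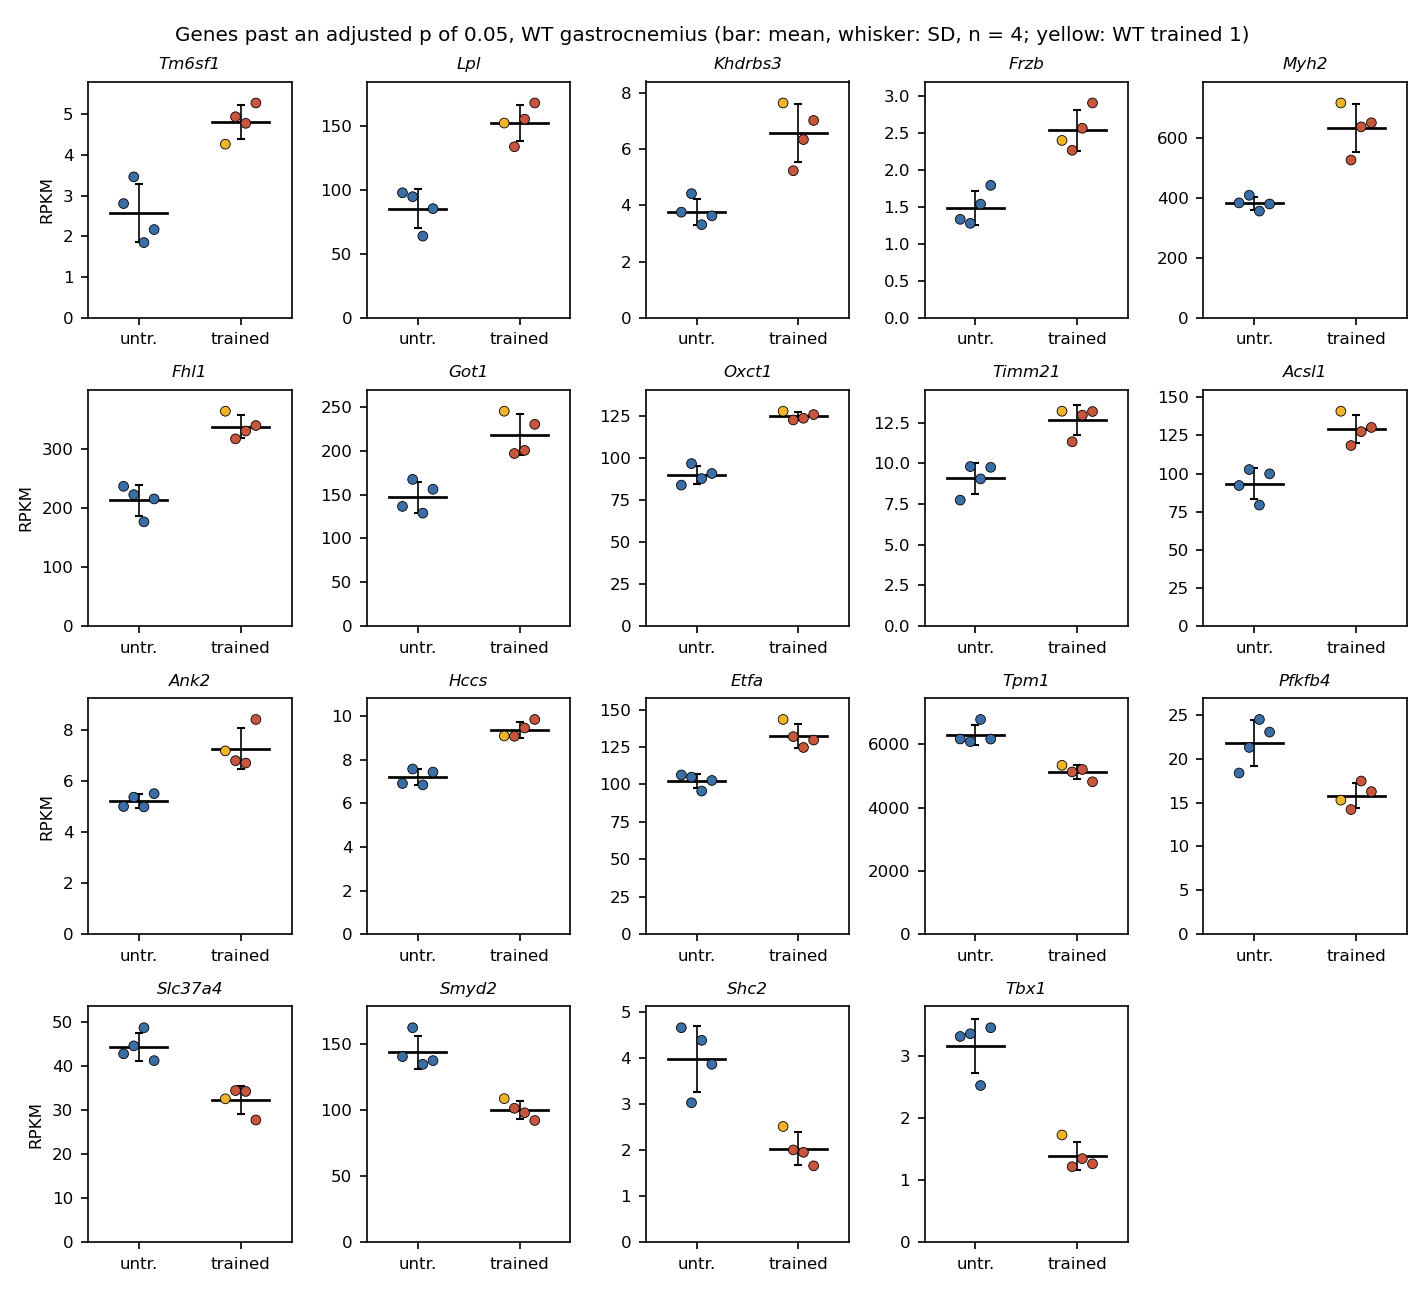
RPKM of the 19 called genes in each WT mouse (points; yellow marks WT trained 1), with the mean and SD of 4 mice per group, in order of log2 difference. Trained and untrained points are separate in every panel, from Tm6sf1 at 4.81 against 2.57 RPKM to Tbx1 at 1.39 against 3.16 RPKM.

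Among contractile genes, Myh2, the myosin heavy chain of type 2A fibres (chromosome 11, 67171027 to 67197517, mm10), rose. Myh2 stood at 383, 408, 356 and 379 RPKM in untrained mice 1 to 4 and at 716, 526, 637 and 650.3 RPKM in trained mice 1 to 4, so that every trained mouse exceeded the highest untrained one. This was a 1.66-fold difference of means (log2 difference 0.72, SE 0.13, limma adjusted p = 0.0365). Fhl1, a LIM-domain protein of the sarcomere encoded on the X chromosome, measured 236, 222, 176 and 215 RPKM without and 364, 317, 330.0 and 339 RPKM with training. It rose 1.59-fold (log2 difference 0.67, SE 0.11, adjusted p = 0.0322), with trained mice within a narrow range and untrained mouse 3 lowest. Tpm1, the alpha-tropomyosin of fast muscle, was among the most abundant transcripts, with 6168, 6082, 6784 and 6165 RPKM in untrained and 5336, 5127, 5204 and 4814 RPKM in trained mice. It fell to 0.813 of the untrained mean (log2 difference -0.30, SE 0.05, adjusted p = 0.0365); under quantile normalization its difference was 0.00. Smyd2, a lysine methyltransferase that acts with the chaperone Hsp90 in muscle, ran from 140.5, 162, 135 and 137 RPKM in untrained to 109, 101.4, 98.0 and 92.2 RPKM in trained mice, a fall to 0.696 of the untrained mean (log2 difference -0.52, adjusted p = 0.0414).

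The 250 bases before the RefSeq start are shown for Myh2 and Tpm1, the called contractile genes that moved in opposite directions, and for Got1, the called gene whose window holds a nuclear receptor half-site. They come from RefSeq's GRCm38.p6, the same coordinates as mm10, and are written on the strand of the gene; capitals mark the half-site AAGGTCA, a sequence that the estrogen-related receptors are known to bind.
Myh2 (chr11:67170777-67171026, plus strand): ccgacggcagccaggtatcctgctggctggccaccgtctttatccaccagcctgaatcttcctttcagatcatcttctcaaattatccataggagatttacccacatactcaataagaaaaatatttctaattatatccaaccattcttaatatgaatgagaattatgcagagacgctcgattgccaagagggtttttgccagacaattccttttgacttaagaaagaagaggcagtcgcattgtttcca
Tpm1 (chr9:67049214-67049463, minus strand): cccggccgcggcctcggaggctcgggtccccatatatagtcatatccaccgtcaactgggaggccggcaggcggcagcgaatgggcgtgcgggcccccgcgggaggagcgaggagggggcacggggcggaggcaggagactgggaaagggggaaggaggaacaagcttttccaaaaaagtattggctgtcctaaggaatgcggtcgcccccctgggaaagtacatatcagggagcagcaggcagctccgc
Got1 (chr19:43524606-43524855, minus strand): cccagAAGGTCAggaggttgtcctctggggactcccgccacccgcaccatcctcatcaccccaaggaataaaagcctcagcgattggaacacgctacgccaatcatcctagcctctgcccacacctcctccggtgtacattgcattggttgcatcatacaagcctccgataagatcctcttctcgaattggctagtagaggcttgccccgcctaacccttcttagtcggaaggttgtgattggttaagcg
In windows of 250 bases before to 50 after the start, 15 of the 19 called genes were matched, with 23 windows. The half-site (AAGGTCA or its complement TGACCTT) was present in 1 of these 15 genes, Got1, where it begins at base -245, against 3.91% of the 7680 tested genes with a window and 4.72% of all 32851 windows. The E-box CAGCTG, a sequence read by the MyoD family, was present in 4 of the 15, Acsl1, Ank2, Frzb and Slc37a4, against 18.2% of tested genes with a window and 16.3% of all windows. The windows are short, and a missing match says only that these letters are not in them.

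The 16 tested slow and oxidative fibre genes were all above 0 in trained minus untrained mice (median log2 difference 0.61, 0.54 without WT trained 1), against 52.4% of all tested genes. Of these 16, Myh2 and Fhl1 rose (background 0.128%), and in 9 the trained mice all exceeded the untrained ones (background 3.76%). Myh7, the slow type 1 myosin heavy chain, had the largest difference, but the untrained mice were split. It stood at 23.5, 3.30, 17.3 and 5.23 RPKM in untrained and 52.4, 47.9, 66.7 and 38.1 RPKM in trained mice, 4.16 times the untrained mean, with a log2 difference of 2.44 (SE 0.79) and an adjusted p of 0.228. The slow troponins and the slow tropomyosin showed the same split, with untrained mice 1 and 3 above mice 2 and 4. Tnnt1, slow troponin T, measured 45.7, 12.6, 32.1 and 14.2 RPKM against 97.6, 80.9, 112 and 68.6 RPKM (adjusted p = 0.215), Tnnc1, the troponin C of slow fibres, 34.4, 8.31, 30.5 and 10.4 RPKM against 98.6, 79.4, 102.3 and 56.8 RPKM (adjusted p = 0.235), and Tpm3, slow tropomyosin, 23.0, 12.2, 19.7 and 14.7 RPKM against 48.3, 44.95, 51.8 and 36.2 RPKM (adjusted p = 0.140). In these bulk libraries more fibres of a type and more of its RNA per fibre cannot be told apart. Actn2, the alpha-actinin of oxidative fibres, averaged 242 ± 41.1 and 350.2 ± 50.6 RPKM (mean ± SD, n = 4 per group; adjusted p = 0.0789) and passed under median-ratio scaling (0.0216).

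The fast fibre genes lay on the other side of 0, in a range of small differences at very high levels. Of 14 tested, 1 was above 0, and the median log2 difference was -0.26 (-0.25 under median-ratio scaling, -0.04 under quantile normalization). Tpm1 fell (background 0.059%), and in 9 of the 14 all trained mice were below all untrained ones (background 2.62%). Under median-ratio scaling 8 passed as lower (background 0.659%). Mylpf, the fast regulatory light chain, measured 11150.5, 11620.2, 12291 and 10871 RPKM in untrained and 9806, 9787, 9885 and 8746 RPKM in trained mice (log2 difference -0.27, adjusted p = 0.0547, median-ratio 0.0228). Actn3, the alpha-actinin of fast fibres, measured 2705, 2479.7, 2928 and 2486 RPKM against 2301, 2033, 2179 and 1896 RPKM (log2 difference -0.33, adjusted p = 0.0547, median-ratio 0.0282). Quantile normalization, which gives each library the same distribution of values, left log2 differences of -0.01 for Mylpf, -0.33 for Actn3 and -0.04 for Myh4, and among abundant genes described further on -0.06 for Pvalb, -0.08 for Pygm and 0.00 for Ckm. The 2 remaining fast myosin heavy chains went opposite ways. Myh1, the type 2X chain, was the member above 0, at 387, 653, 346 and 509.6 RPKM in untrained and 821, 711, 762 and 799.6 RPKM in trained mice (log2 difference 0.75, adjusted p = 0.0949, median-ratio 0.0434). Myh4, the type 2B chain and the most abundant of the 4, stood at 10098, 9149, 10715 and 9946 RPKM against 7852, 7787, 9269 and 8552 RPKM, where trained mouse 3 overlapped with untrained mouse 2 (log2 difference -0.26, adjusted p = 0.131). By mean RPKM the order in both groups was Myh4, Myh1, Myh2 and Myh7. The values of Myh1 and Myh2 overlapped in both groups, whereas Myh4 lay above and Myh7 below them in every WT mouse. These genes are similar in sequence, and how reads that fit several of them were counted is not given in the sources used here.

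**Figure D3:**
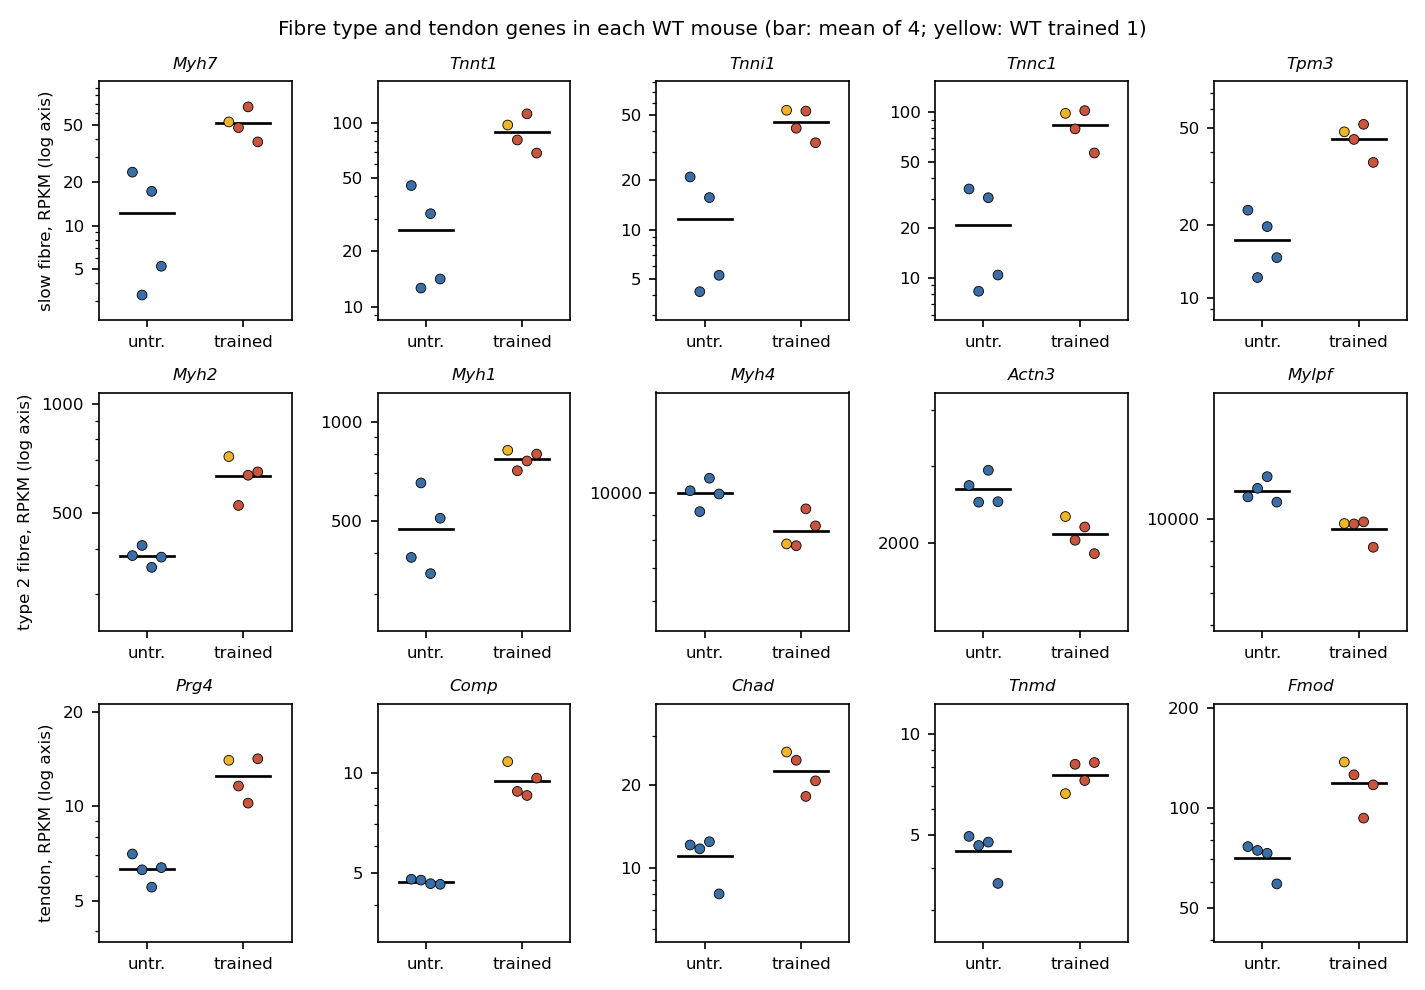
RPKM in each WT mouse (log axis; points are mice, bars the mean of 4, yellow WT trained 1) for 5 slow fibre genes, 5 type 2 fibre genes and 5 tendon genes. Myh7, Tnnt1, Tnni1, Tnnc1 and Tpm3 show untrained mice 1 and 3 above 2 and 4 and all trained mice higher, while Mylpf and Actn3 lie lower in trained mice within a narrow range.

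Calcium handling genes of the sarcoplasmic reticulum were mixed, with 5 of 19 above 0 (median log2 difference -0.10) and none called. Casq2, the calsequestrin of slow and cardiac muscle, averaged 9.56 ± 2.40 and 15.5 ± 1.19 RPKM (adjusted p = 0.0543, median-ratio 0.0278). On the lower side were Pvalb, the calcium buffer parvalbumin of fast fibres, at 8584 ± 604 and 6987 ± 369.6 RPKM (adjusted p = 0.0550, median-ratio 0.0370), and Cacng1, a subunit of the voltage sensor, at 195 ± 5.88 and 149.4 ± 20.6 RPKM (adjusted p = 0.0508, median-ratio 0.0131).

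Of the 20 tested transcription regulators linked to fibre type, Tbx1 changed (background 0.187%). Tbx1, a T-box factor, stood at 3.31, 3.35, 2.52 and 3.45 RPKM in untrained and 1.73, 1.22, 1.35 and 1.26 RPKM in trained mice, a fall to 0.440 of the untrained mean (log2 difference -1.13, SE 0.22, adjusted p = 0.0445). Untrained mouse 3 was lowest of its group and still above every trained mouse. The list as a whole was centred on 0, with 10 of 20 above it. Among 19 regulators of the PGC-1, ERR and PPAR families, which drive mitochondrial and lipid genes, 14 were above 0 (median log2 difference 0.13) and none was called. Esrrg, an estrogen-related receptor enriched in oxidative muscle, measured 3.68, 4.62, 3.65 and 4.07 RPKM in untrained and 5.69, 4.86, 5.36 and 5.14 RPKM in trained mice, without overlap (log2 difference 0.39, adjusted p = 0.154). Ppara, the nuclear receptor for fatty acids, also had no overlap, at 2.26, 3.16, 3.33 and 2.95 RPKM against 5.16, 3.56, 3.92 and 4.37 RPKM (log2 difference 0.53, adjusted p = 0.170). Ppargc1a, the coactivator PGC-1alpha, and Esrra overlapped between groups, at 5.17 ± 0.777 against 5.64 ± 0.707 RPKM (adjusted p = 0.898) and 34.6 ± 3.67 against 38.4 ± 4.64 RPKM (adjusted p = 0.620).

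Among 18 tested genes for the uptake and activation of fatty acids and 25 for their oxidation 3 changed (background 0.187%). These 3, Lpl, Acsl1 and Etfa, were higher in trained WT muscle. Lpl, lipoprotein lipase, which releases fatty acids from triglyceride in the blood, stood at 97.8, 94.8, 63.9 and 85.4 RPKM in untrained mice and at 152, 134, 155 and 168 RPKM in trained mice. It rose 1.78-fold (log2 difference 0.85, SE 0.15, adjusted p = 0.0365), with untrained mouse 3 lowest. Acsl1, which activates long-chain fatty acids with coenzyme A, measured 92.2, 103, 79.3 and 99.8 RPKM against 140.9, 118.4, 128 and 130.3 RPKM and rose 1.38-fold (log2 difference 0.47, SE 0.09, adjusted p = 0.0435). Etfa, a subunit of the flavoprotein that takes electrons from fatty acid oxidation, measured 106, 105, 95.6 and 103 RPKM against 143.4, 132, 125 and 129.7 RPKM and rose 1.29-fold (log2 difference 0.37, SE 0.07, adjusted p = 0.0365). For each of the 3 the lowest trained mouse was above the highest untrained one.

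Of the 18 uptake and activation genes 14 were above 0 (median log2 difference 0.17, 0.12 without WT trained 1), and of the 25 genes of mitochondrial fatty acid oxidation 22 were above 0 (median 0.24, 0.17 without WT trained 1). In 13 of these 25 the trained mice were all above the untrained ones (background 3.76%), and 12 passed under median-ratio scaling, all higher (background 1.08%). Among them were both subunits of the trifunctional protein, which carries out the later steps of long-chain oxidation. Hadha measured 91.1, 95.4, 84.8 and 94.5 RPKM in untrained and 143.4, 120.9, 108 and 127 RPKM in trained mice (adjusted p = 0.0508, median-ratio 0.00842). Hadhb averaged 190.4 ± 13.7 and 247 ± 20.9 RPKM (adjusted p = 0.0547, median-ratio 0.0131). Acaa2, a thiolase, averaged 86.5 ± 6.46 and 126 ± 19.6 RPKM (adjusted p = 0.0567, median-ratio 0.0131), and Acadl, the long-chain dehydrogenase, 123 ± 11.5 and 167 ± 21.05 RPKM (adjusted p = 0.0559, median-ratio 0.0131). WT trained 1 was the highest library for Hadha, Hadhb, Acaa2 and Acadl. Without it their median-ratio adjusted p was 0.00942, 0.0157, 0.0191 and 0.0189. Carriers of fatty acids passed under median-ratio scaling as well. Cd36, a fatty acid translocase, measured 77.7, 62.4, 61.7 and 67.8 RPKM against 88.2, 88.3, 83.2 and 92.9 RPKM (adjusted p = 0.0547, median-ratio 0.0261). Fabp3, the muscle fatty acid binding protein, averaged 842 ± 121.4 and 1292 ± 285 RPKM (adjusted p = 0.116, median-ratio 0.0440). WT trained 1 was the highest for Fabp3 at 1671 RPKM, and without it the median-ratio adjusted p was 0.0651. None of the 17 lipid droplet genes was called; Plin5, which coats droplets next to mitochondria, averaged 13.8 ± 1.16 and 20.5 ± 5.37 RPKM without overlap (adjusted p = 0.169).

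Ketone body and lactate use held 1 changed gene among 11 (background 0.187%). Oxct1, the transferase that commits ketone bodies to oxidation, stood at 83.7, 96.5, 87.5 and 90.6 RPKM in untrained and 128, 122, 123 and 126 RPKM in trained mice. The 4 trained values lay close together, and Oxct1 rose 1.39-fold (log2 difference 0.48, SE 0.07, adjusted p = 0.0185). Bdh1, which interconverts the ketone bodies, averaged 16.6 ± 3.76 and 26.1 ± 4.45 RPKM (adjusted p = 0.0920, median-ratio 0.0315). WT trained 1 was the highest for Bdh1 at 32.3 RPKM, and without it the median-ratio adjusted p was 0.0516. Ldhb, the lactate dehydrogenase subunit of oxidative tissue, averaged 115 ± 15.7 and 189 ± 37.3 RPKM (adjusted p = 0.0862, median-ratio 0.0307), whereas Ldha, the subunit of fast muscle, averaged 1292 ± 80.7 and 1113 ± 52.6 RPKM (adjusted p = 0.196).

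The malate-aspartate shuttle carries reducing equivalents from the cytosol into mitochondria, and its cytosolic aminotransferase Got1 rose. Got1 stood at 137, 167, 129 and 156 RPKM in untrained and 245, 197, 201 and 230.3 RPKM in trained mice, 1.48-fold higher (log2 difference 0.57, SE 0.11, adjusted p = 0.0415). The partners of Got1 in the shuttle, Mdh1, cytosolic malate dehydrogenase, and Got2, the mitochondrial aminotransferase, passed under median-ratio scaling. Mdh1 averaged 248.8 ± 24.8 and 334 ± 24.2 RPKM (adjusted p = 0.0508, median-ratio 0.00648) and Got2 194 ± 18.9 and 241 ± 19.1 RPKM (adjusted p = 0.103, median-ratio 0.0131). Gpd1, the cytosolic enzyme of the glycerol phosphate shuttle, was on the other side, at 255, 282, 311 and 274 RPKM against 244, 225, 246 and 223 RPKM (log2 difference -0.26, adjusted p = 0.174).

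No enzyme gene of pyruvate dehydrogenase, the citric acid cycle or complex I was called. Of the 28 genes of the first 2 groups 26 were above 0 (median log2 difference 0.14, 0.13 without WT trained 1), and 11 had no overlap (background 3.76%). Cs, citrate synthase, measured 287, 325, 287 and 295 RPKM in untrained and 365, 336, 328 and 330.3 RPKM in trained mice (log2 difference 0.19, adjusted p = 0.215, median-ratio 0.0197). Pdk4, the kinase that shuts off pyruvate dehydrogenase, overlapped between groups, at 352 ± 58.4 and 337 ± 84.7 RPKM (adjusted p = 0.896). The respiratory chain split by complex: 24 of 36 complex I genes were above 0 with a median of 0.04 (-0.00 without WT trained 1), and 40 of 47 genes of complexes II to V and cytochrome c with a median of 0.10 (0.05 without WT trained 1). No test of the difference between these lists was made.

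Hccs, the lyase that attaches heme to cytochrome c, rose within the respiratory list. It stood at 6.91, 7.57, 6.84 and 7.43 RPKM in untrained and 9.09, 9.07, 9.45 and 9.84 RPKM in trained mice, a 1.303-fold difference (log2 difference 0.38, SE 0.06, adjusted p = 0.0265), with both groups tight. Cycs, cytochrome c itself, averaged 108 ± 6.05 and 126 ± 8.34 RPKM (adjusted p = 0.0946). Timm21, a subunit of the inner membrane import machinery, measured 7.73, 9.80, 9.04 and 9.75 RPKM against 13.2, 11.3, 12.96 and 13.2 RPKM and rose 1.39-fold (log2 difference 0.48, SE 0.09, adjusted p = 0.0365); trained mouse 2 was the lowest of its group. The other 27 import genes were not called, and 13 of all 28 were above 0. Mb, myoglobin, which stores oxygen in oxidative fibres, stood at 1504, 1932, 1229 and 1647 RPKM in untrained and 2952, 2269.5, 2115 and 2079 RPKM in trained mice without overlap (log2 difference 0.58, adjusted p = 0.125, median-ratio 0.0395), and WT trained 1 was the highest (0.47 and adjusted p = 0.133 without it). Ckmt2, the mitochondrial creatine kinase of muscle, averaged 700.2 ± 130.0 and 999 ± 43.2 RPKM (adjusted p = 0.0567, median-ratio 0.0131), while Ckm, the cytosolic form, averaged 15279 ± 753 and 13077 ± 1006 RPKM (adjusted p = 0.105, median-ratio 0.0315).

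Slc37a4 and Pfkfb4, which handle glucose and fructose phosphates, were lower in trained muscle. Slc37a4, the glucose-6-phosphate transporter of the endoplasmic reticulum, stood at 42.8, 44.6, 48.7 and 41.2 RPKM in untrained and 32.6, 34.4, 34.2 and 27.8 RPKM in trained mice and fell to 0.728 of the untrained mean (log2 difference -0.46, SE 0.07, adjusted p = 0.0265). Pfkfb4, a kinase and phosphatase that sets the level of fructose-2,6-bisphosphate, the activator of glycolysis, measured 18.4, 21.3, 24.5 and 23.0 RPKM against 15.3, 14.2, 17.4 and 16.2 RPKM and fell to 0.725 of the untrained mean (log2 difference -0.46, SE 0.09, adjusted p = 0.0415). Among 18 glycolytic genes 6 were above 0 (median log2 difference -0.13, -0.01 under quantile normalization), and among 17 glycogen genes 5 (median -0.11). Pygm, the muscle glycogen phosphorylase, averaged 3342 ± 151 and 2765 ± 220.1 RPKM (adjusted p = 0.0608, median-ratio 0.0218), and Pkm, pyruvate kinase, 1359 ± 92.0 and 1176 ± 37.2 RPKM (adjusted p = 0.145). Slc2a4, the insulin-responsive transporter GLUT4, overlapped between groups at 168, 183, 196 and 194 RPKM in untrained and 193, 167, 176 and 173 RPKM in trained mice (log2 difference -0.06, adjusted p = 0.737). The glucose uptake list was near 0, with a median of -0.01 that became -0.12 without WT trained 1 and changed sign to 0.00 under median-ratio scaling.

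The remaining 5 called genes have other roles. Tm6sf1, a transmembrane protein of lysosomes, had the largest rise, from 2.80, 3.46, 1.84 and 2.16 RPKM in untrained to 4.26, 4.93, 4.77 and 5.27 RPKM in trained mice (1.87-fold, log2 difference 0.92, SE 0.18, adjusted p = 0.0445). Khdrbs3, an RNA-binding splicing regulator, measured 3.76, 4.42, 3.31 and 3.63 RPKM against 7.65, 5.23, 6.34 and 7.02 RPKM (1.74-fold, log2 difference 0.77, adjusted p = 0.0322). Frzb, a secreted antagonist of Wnt signalling, measured 1.33, 1.27, 1.53 and 1.79 RPKM against 2.39, 2.26, 2.56 and 2.90 RPKM (1.71-fold, log2 difference 0.74, adjusted p = 0.0365). Ank2, an ankyrin that anchors membrane proteins to the cytoskeleton, measured 4.9995, 5.36, 4.98 and 5.50 RPKM against 7.17, 6.79, 6.70 and 8.41 RPKM (1.39-fold, log2 difference 0.47, adjusted p = 0.0415). These 4 were higher in every trained mouse. Shc2, an adaptor of receptor tyrosine kinases, stood at 4.65, 3.02, 4.38 and 3.86 RPKM in untrained and 2.51, 2.002, 1.95 and 1.66 RPKM in trained mice and fell to 0.511 of the untrained mean (log2 difference -0.93, SE 0.14, adjusted p = 0.0185). Exons of Acsl1, Ank2, Hccs, Myh2, Oxct1, Shc2, Smyd2 and Tm6sf1 overlap those of another gene on the other strand, and Tm6sf1 also one on its own strand (GENCODE M21). Whether the counting used strand is not given in the sources used here, so reads of these 8 and of their partners may be mixed.

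Beyond the 19, the genes with the largest differences among those called with library weights and without overlap included several patterning factors at low levels. Barx2, a homeobox factor of muscle progenitors, stood at 1.28, 1.85, 1.37 and 1.87 RPKM in untrained and 4.38, 4.26, 3.89 and 4.45 RPKM in trained mice (log2 difference 1.38, adjusted p = 0.0508, with weights 0.0221). Six2, a homeobox factor, measured 7.86, 6.5998, 6.63 and 5.19 RPKM against 3.55, 2.71, 3.05 and 1.94 RPKM (log2 difference -1.21, adjusted p = 0.0508, with weights 0.0167). Aqp4, the water channel of fast fibres, measured 2.45, 3.46, 3.16 and 2.76 RPKM against 3.92, 5.78, 5.09 and 5.12 RPKM (log2 difference 0.73, adjusted p = 0.0508, with weights 0.00800). All 3 had adjusted p just above 0.05 when every library counted equally. Hmga1, a chromatin architectural protein, averaged 3.89 ± 0.440 and 1.499 ± 0.783 RPKM (adjusted p = 0.0637, with weights 0.0293), and En1, a homeobox factor, 2.56 ± 0.328 and 1.42 ± 0.441 RPKM (adjusted p = 0.0567, with weights 0.0193).

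No tendon or cartilage gene was called in the main test, though nearly all lay above 0. Of 13 tested, 12 were above 0 with a median log2 difference of 0.75 (0.68 without WT trained 1), and in 10 all trained mice exceeded all untrained ones (background 3.76%). The summed level of the 16 markers ran from 151 to 189 RPKM in untrained and from 266 to 341 RPKM in trained mice, without overlap. Prg4, the joint lubricant lubricin, stood at 7.05, 6.28, 5.53 and 6.38 RPKM in untrained and 14.0, 11.6, 10.2 and 14.2 RPKM in trained mice (log2 difference 0.97, adjusted p = 0.0513, median-ratio 0.0233). Comp, a matrix protein of tendon and cartilage, measured 4.77, 4.74, 4.63 and 4.61 RPKM against 10.8, 8.81, 8.56 and 9.66 RPKM (adjusted p = 0.131), and Chad, another matrix protein of the same tissues, 12.1, 11.7, 12.4 and 8.03 RPKM against 26.3, 24.5, 18.1 and 20.7 RPKM (adjusted p = 0.309). Mkx, Col2a1 and Acan, the last 2 of cartilage, were under the filter, and Acan was near 0 in all 8 mice. The amount of tendon in each sample was not measured by other means, and its part in the results above was not tested.

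Summed markers of the other cells that the muscle holds overlapped between groups. The 22 fibroblast and matrix markers summed to 581 to 718 RPKM in untrained and 640.5 to 771 RPKM in trained mice. Of these, 16 of 22 were above 0, with a median log2 difference of 0.12 (0.05 without WT trained 1). The 13 adipocyte markers, of which Ucp1 was at 0 in every WT mouse, summed to 1289.5 to 1464 and 1085 to 1380.1 RPKM. Of 11 tested, 9 were above 0 (median 0.24, 0.16 without WT trained 1). The 14 endothelial markers summed to 135 to 164 and 137 to 177 RPKM (median 0.03, -0.04 without WT trained 1). The 14 smooth muscle and pericyte markers summed to 1437 to 1567 and 1247 to 1646 RPKM (median 0.01, -0.07 without WT trained 1). Des, also on the fibre identity list, alone held 1271 to 1392 RPKM of the smooth muscle sum in untrained and 1082 to 1441 RPKM in trained mice. Car3 alone held 888 to 996 and 526 to 938 RPKM of the adipocyte sum. The smooth muscle and adipocyte sums therefore say little about their other members. Schwann cell and myelin markers ranged widely among trained mice, from 34.7 to 98.4 RPKM in sum, against 49.9 to 64.5 RPKM in untrained mice. Their median log2 difference was -0.02, and -0.28 without WT trained 1. The macrophage and leukocyte markers summed to 73.0 to 112 and 59.8 to 92.5 RPKM (median 0.06, -0.06 without WT trained 1). Of 10 tested, 7 were above 0, and in 2 all trained mice were below all untrained ones (background 2.62%). These were Cd74, at 30.3 to 46.9 against 19.4 to 28.6 RPKM (limma adjusted p = 0.465), and H2-Ab1, at 10.4 to 17.1 against 6.91 to 10.1 RPKM (0.518). The sums of the neuromuscular junction, satellite cell and erythrocyte lists also overlapped between groups. None of the markers in these 9 lists was called, and the part of these cells in the results was not tested.

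Angiogenic factors and receptors leaned upwards, with 17 of 19 above 0 (median log2 difference 0.24, 0.16 without WT trained 1) and none called. Fgf1, an acidic fibroblast growth factor, measured 9.16, 8.86, 7.13 and 9.32 RPKM in untrained and 13.7, 10.04, 11.4 and 11.9 RPKM in trained mice without overlap (adjusted p = 0.0547, median-ratio 0.0131). Angpt1, which stabilises vessels through the receptor Tie2, averaged 1.58 ± 0.219 and 2.39 ± 0.139 RPKM (adjusted p = 0.0679, median-ratio 0.0378). Vegfa, the main angiogenic factor of muscle, overlapped, at 24.5, 37.95, 28.7 and 29.7 RPKM against 41.6, 27.4, 36.1 and 37.2 RPKM (log2 difference 0.24, adjusted p = 0.541). Of 12 tested secreted factors linked to exercise, 10 were above 0 and none was called; Fndc5, the precursor of irisin, averaged 25.3 ± 2.61 and 34.1 ± 4.12 RPKM (adjusted p = 0.131, median-ratio 0.0282).

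The 38 cytosolic ribosomal protein genes were all below 0, with a median log2 difference of -0.14 (-0.12 under median-ratio scaling, -0.22 without WT trained 1), and none was called in the main test. With library weights, where WT trained 1 counted least, 10 of the 38 were called lower (background 2.16%). Under median-ratio scaling 1 was called lower (background 0.659%). In 0 of the 38 were all trained mice below all untrained ones (background 2.62%). Their sum in WT trained 1 was 8811 RPKM, above the 8009 to 8634 RPKM of the untrained mice. Rps20, a protein of the small ribosomal subunit, measured 370.4, 390.4, 381 and 371 RPKM in untrained and 371, 314, 285 and 283 RPKM in trained mice, where WT trained 1 lay at the level of the untrained mice (adjusted p = 0.105, median-ratio 0.0131). Growth and atrophy genes were mixed (11 of 26 above 0) and none was called. Ddit4, a stress-induced inhibitor of mTORC1, stood at 23.6, 19.9, 23.7 and 29.9 RPKM in untrained and 10.8, 8.73, 8.66 and 2.43 RPKM in trained mice without overlap (log2 difference -1.83, SE 0.83, adjusted p = 0.408). Eif4ebp1, a repressor of cap-dependent translation, averaged 44.0 ± 5.06 and 34.3 ± 3.19 RPKM (adjusted p = 0.0606, median-ratio 0.0218). Of 29 heat shock and chaperone genes 16 were above 0, and Smyd2 alone was called (background 0.187%). The circadian, immediate early and interleukin-13 and interleukin-4 lists held no called gene. Il4ra, the receptor chain shared by both cytokines, averaged 1.78 ± 0.278 and 1.72 ± 0.306 RPKM (adjusted p = 0.947), and the signalling chain Il13ra1 ranged from 0.502 to 0.925 RPKM in untrained and from 0.682 to 1.124 RPKM in trained mice, under the filter.

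**Figure D4:**
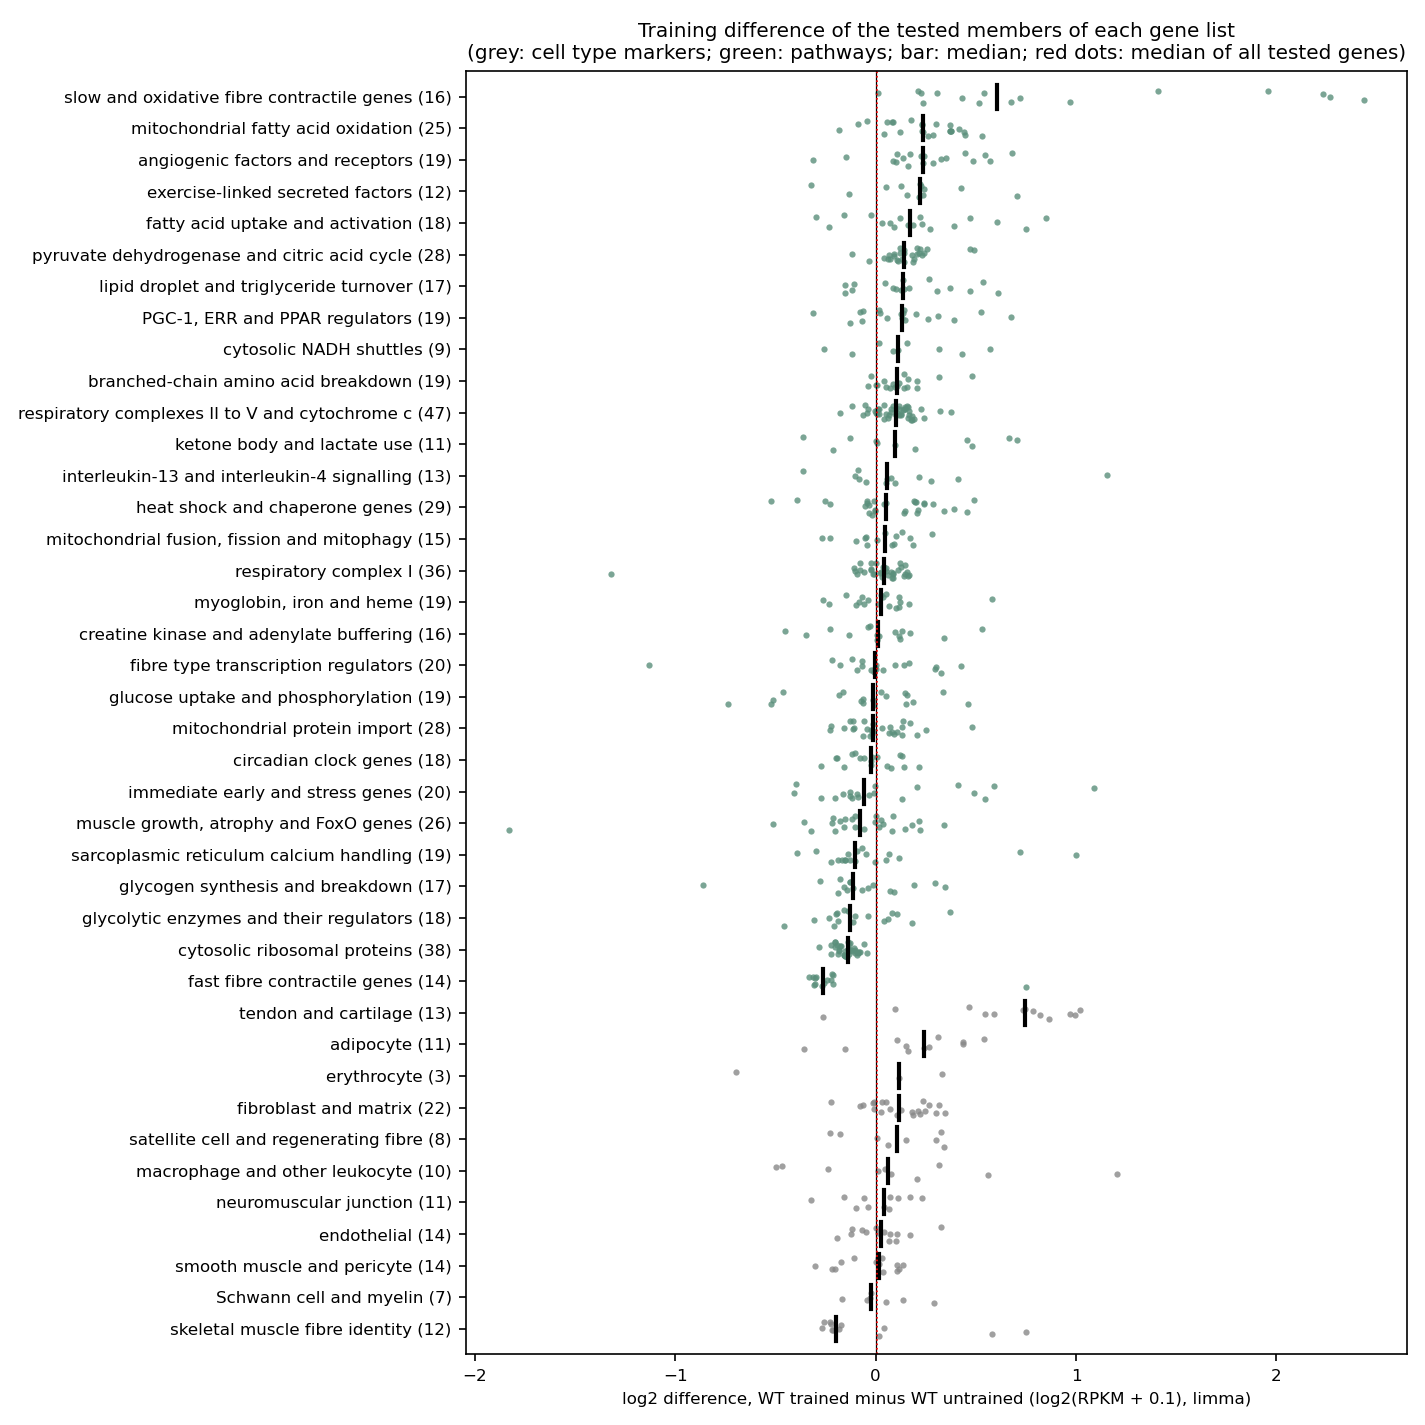
Log2 difference of WT trained minus WT untrained for each tested member of the 40 gene lists (points; green pathways, grey cell type markers), with the list's median as a bar and the number tested in brackets; the dotted line is the median of all tested genes. The tendon list (median 0.75) and the slow fibre list (0.61) lie furthest to the right, and the fast fibre list (-0.26) furthest to the left.

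The same genes were then set beside the response of Il13-/- muscle, and the difference of the responses (KO minus WT) was tested over all 10171 genes. No gene passed (0%; smallest adjusted p = 0.526, limma), and 854 genes were under 0.05 before adjustment; voom on recovered reads also called none. For the 19 genes the log2 difference in KO was smaller in size than in WT in 19, had the same sign in 16 and had a median size of 0.11 against 0.52. No gene of the 19 was called in KO, where 2 of them were under 0.05 before adjustment. They were chosen for their difference in WT, so these counts describe them and support nothing. Myh2 averaged 448 ± 53.7 RPKM in untrained and 422 ± 95.1 RPKM in trained KO mice, a log2 difference of -0.10, and the difference of responses was -0.82 (SE 0.18, adjusted p = 0.526). Fhl1 averaged 226 ± 30.9 and 208 ± 32.96 RPKM in KO (difference of responses -0.79, adjusted p = 0.526). Lpl averaged 119.6 ± 23.3 and 126 ± 22.2 RPKM in KO (difference of responses -0.77, adjusted p = 0.526). Pfkfb4 had the largest KO difference in size among the 19 (-0.27, against -0.46 in WT). Without KO trained 3, the difference of responses passed for Myh2 (-0.97, adjusted p = 0.0168) and Prg4 (-1.53, adjusted p = 0.0168). This was 1 of the 16 fits that each left out 1 library. KO trained 3 did not stand apart by its library weight (1.24) or its median absolute deviation from its own group (0.10).

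Set side by side as a description, the list medians shared no single pattern between genotypes, and in 17 of the 40 the KO median was the larger in size (median of all tested genes in KO -0.06). The 16 slow fibre genes had a median of -0.24 in KO, with 2 above 0, against 0.61 and 16 in WT. For the 13 tendon genes the medians were -0.30 and 0.75, for the 25 fatty acid oxidation genes 0.06 and 0.24, and for the 38 ribosomal protein genes -0.05 and -0.14. Most markers of several other cell types also lay below 0 in KO, with none of them called. The 11 tested adipocyte genes had a median of -0.61 in KO, with 0 above 0, against 0.24 and 9 in WT, and the 7 Schwann cell genes -0.64, with 0 above 0, against -0.02 and 3. For the 10 macrophage and leukocyte genes the medians were -0.40 in KO, with 1 above 0, and 0.06 in WT, for the 22 fibroblast and matrix genes -0.28, with 0 above 0, and 0.12, and for the 14 smooth muscle genes -0.22, with 1 above 0, and 0.01. These WT medians depended on WT trained 1. Without it they were 0.16 for adipocyte, -0.28 for Schwann cell, -0.06 for leukocyte, 0.05 for fibroblast and -0.07 for smooth muscle genes. In sum the KO markers ran from 1211 to 1868 RPKM without and 1013 to 1651 RPKM with training for adipocytes, 65.7 to 146.04 and 44.6 to 63.7 RPKM for Schwann cells, 89.5 to 136 and 55.6 to 111 RPKM for leukocytes, 631 to 909.8 and 519.9 to 796 RPKM for fibroblasts and 193 to 324 and 122 to 288 RPKM for tendon. The Schwann cell sums did not overlap between these groups, and the other 4 did. The smooth muscle sums, 1420 to 1554 RPKM without and 1276 to 1370 RPKM with training, did not overlap either. Des alone held 1226 to 1369 RPKM of the smooth muscle sum without and 1095 to 1211 RPKM with training. Car3 alone held 715 to 1091 RPKM of the KO adipocyte sum without and 609 to 972 RPKM with training. Without KO trained 3 the KO medians were -0.96 for the adipocyte, -0.55 for the tendon and -0.46 for the slow fibre genes. In that fit they were -0.62 for Schwann cell, -0.38 for leukocyte, -0.35 for fibroblast and -0.30 for smooth muscle genes. KO medians with any other KO library left out, such as KO untrained 3, are not given. The part of these cells in the differences of responses was not tested. Myh7 in KO mice stood at 33.9, 7.50, 61.5 and 23.9 RPKM without and 21.3, 13.3, 68.4 and 8.24 RPKM with training, so that its spread between untrained mice was also wide there, and the difference of responses was -2.74 (SE 1.12, adjusted p = 0.550).

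**Figure D5:**
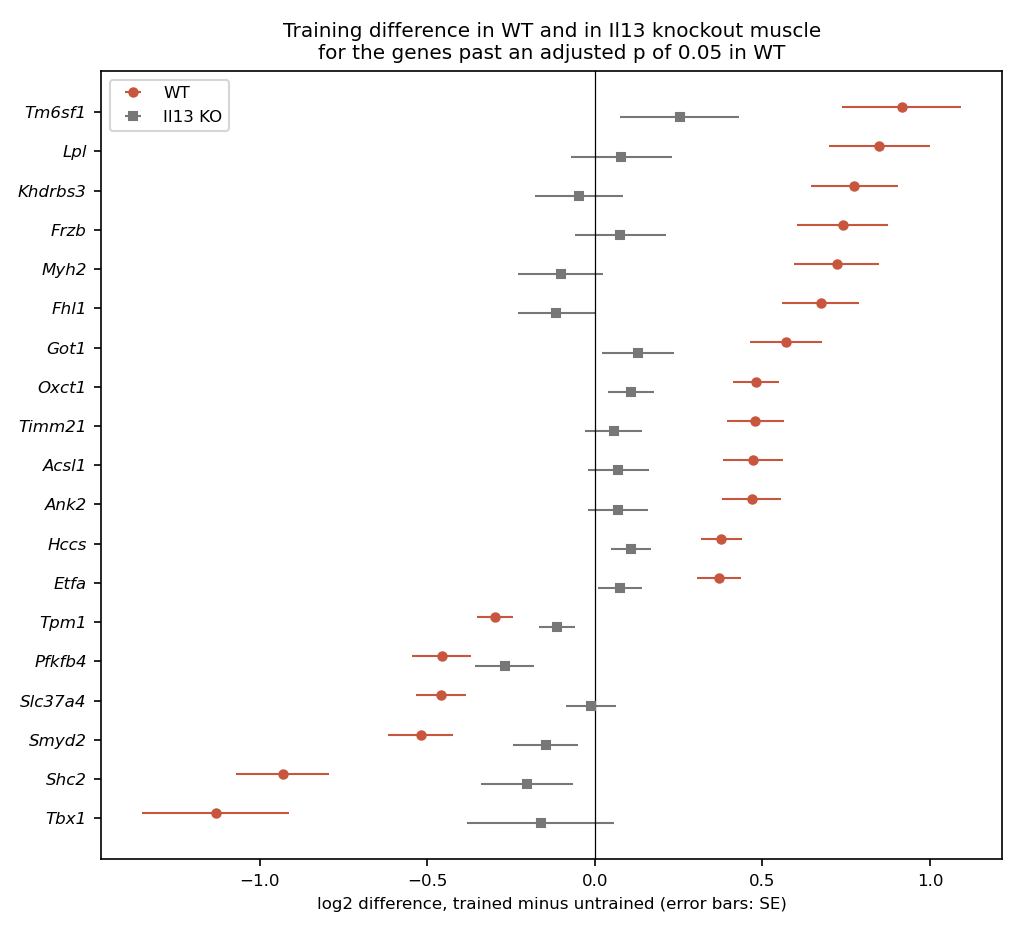
Log2 difference of trained minus untrained (x axis; error bars are SE) for the 19 called genes in WT (circles) and Il13-/- muscle (squares). The KO values lie nearer to 0 for all 19, which were chosen by their WT values; the difference of responses passed for none of them.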

How the data were processed

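Stranded mRNA libraries were made from the gastrocnemius of each mouse, per the labels' protocols. The deposited values are RPKM, which the authors computed from reads after trimming, per the file headers. Per the submitters' processing notes reads were placed on mm10; the sources used here do not give the aligner, the annotation or whether counting used strand. Library totals and whole reads were solved from the steps between low RPKM values: 100.0% of values above 0 came out whole within 0.01 read, for 17402 of 23440 genes, the others being at 0 in every library. RPKM were fitted as log2(RPKM + 0.1) with limma 3.58.1 (mean-variance trend, robust moderation, statmod 1.5.0, R 4.3.3), for genes that reached 1 RPKM in 4 or more of the 16 libraries, with 1 mean per group over all 16 libraries. Tests were two-sided, adjusted by Benjamini-Hochberg over 10171 genes, threshold 0.05, and the scripts were tested on simulated data.

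Alternatives were quantile normalization, median-ratio scaling (genes above 5 RPKM in every library), no filter, a stricter filter (5 RPKM), other pseudocounts (0.01 and 1), a fit of the 8 WT libraries alone, weights per library, the replicate number as a block, voom on the recovered reads and each library left out; median-ratio scaling with weights or without WT trained 1 was added after seeing the data. The rule for named genes took every called gene, up to 10 per direction with the largest difference among those called with weights and without overlap, up to 5 members of each of 40 lists with the smallest p, and some genes regardless of value; unnamed gene models were skipped, and not all of the 221 named are printed. Chad, Tnnc1, Tnni1, Tnmd, Fmod and Hspb6 lie outside it and were chosen after their values were seen. The members and lists were chosen with earlier results of these data known. Python 3.11.15, NumPy 2.4.6, pandas 2.3.3 and matplotlib 3.10.9 were used for tables and plots, and RefSeq windows of GRCm38.p6 and GENCODE M21 for promoters and overlaps.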

Additional observations from a re-analysis of the deposited data

Results flagged for a closer look

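Within groups of 4 mice, 62 sets of values were examined for 1 mouse far from the other 3, and chance marks about 1 in 20 such sets. For Tpm1, untrained mouse 3 stood at 6784 RPKM against 6082 to 6168 RPKM in the other untrained mice. For Tbx1 the same mouse stood at 2.52 RPKM against 3.31 to 3.45 RPKM. Its summed adipocyte markers came to 1290 RPKM, of which Car3 alone held 888 RPKM, against 1445 to 1464 RPKM. For Timm21, trained mouse 2 stood at 11.3 RPKM against 12.96 to 13.2 RPKM in the other trained mice. The share of reads in genes of the table was 79.9% in untrained mouse 1 against 82.9% to 83.3% in the other untrained mice. In none of the 3 genes did the mouse that stood apart close the gap to the other group.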

How the results depend on the processing

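The number of genes called for training in WT, 19 as reported, was 155 (53 of them lower) under quantile normalization, 177 (110 higher, 67 lower) under median-ratio scaling, 3 (2, 1; Shc2, Oxct1 and Hccs) with no filter, 58 (31, 27) with a filter at 5 RPKM, 39 (23, 16) with a pseudocount of 1, 35 (25, 10) with only the 8 WT libraries, 329 (109, 220) with library weights and 64 (36, 28) with voom. It was 388 (212, 176) under median-ratio scaling without WT trained 1 and 398 (229, 169) with that scaling and weights, both chosen after seeing the data, and 19 with a pseudocount of 0.01. Leaving out 1 library gave 0 to 272: 6 without untrained mouse 1, 22 without 2, 0 without 3 and 5 without 4, and 272, 10, 0 and 0 without trained mice 1 to 4. The cause was not tested. With the replicate number as a block 16 were called (8 higher, 8 lower), 10 of them among the 19. Same-numbered WT mice correlated in their deviations from the group means by -0.11, -0.05, 0.04 and 0.11. These 4 values cannot show whether same-numbered mice shared more than a number. Over all settings, 243 of the values of the 19 genes kept their call and 133 did not, and no sign changed; Tpm1 was at 0.00 under quantile normalization. The difference of responses, 0 as reported, was 1 under quantile normalization (Hspb6) and 1 with no filter (an unnamed gene model), and leaving out 1 library gave 0 to 2. Of 40 list medians, 8 moved by more than the spread between mice under at least 1 setting, among them the fast fibre, glycolytic and fibre identity lists under quantile normalization (-0.04, -0.01 and 0.01, against -0.26, -0.13 and -0.20). Depth limits the low genes: a count of 0 allows up to 3 reads, counting error only.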

Other observations

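The 2 mitochondrial lists not described so far held no called gene. Of 19 genes of branched-chain amino acid breakdown 17 were above 0 (median log2 difference 0.11, 0.06 without WT trained 1). The list of fusion, fission and mitophagy genes was nearer to 0, with 9 of 15 above it (median 0.04). Of the 15, 2 were higher and 1 lower without overlap (background 3.76% and 2.62%). The lower gene was Fundc1, a mitophagy receptor (adjusted p = 0.481). Mfn1, which fuses outer mitochondrial membranes, stood at 39.8, 38.8, 38.02 and 40.8 RPKM in untrained and 48.5, 45.7, 46.9 and 49.9 RPKM in trained mice without overlap (log2 difference 0.28, SE 0.06, adjusted p = 0.0508, median-ratio 0.0138). Hspa9, the mitochondrial chaperone mortalin, stood at 149.7, 163, 154 and 162 RPKM against 187, 178, 180.0 and 181 RPKM (adjusted p = 0.122, median-ratio 0.0200).

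Some genes at low levels had large differences. H2-Q6, a class I histocompatibility gene with close paralogs, stood at 2.16, 1.98, 2.31 and 3.64 RPKM in untrained and at 0, 0.490, 0.762 and 0 RPKM in trained mice (adjusted p = 0.0559, with weights 0.0437). S100a5, a calcium-binding protein, stood at 0.544, 0.398, 0.138 and 0 RPKM in untrained and 1.14, 0.973, 1.15 and 1.17 RPKM in trained mice (adjusted p = 0.116, with weights 0.0437). Nmb, the peptide neuromedin B, whose exons overlap those of Sec11a on the same strand, stood at 4.11, 3.10, 6.73 and 4.94 RPKM against 2.36, 3.08, 2.13 and 1.84 RPKM (adjusted p = 0.0547, with weights 0.0121).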
